A study of Mus musculus with 102 samples.

Results

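Epidermal stem cells of adult mice on control diet were compared between the start of the dark phase (ZT12) and the start of the light phase (ZT0). Zeitgeber time (ZT) counts hours from lights on. The comparison rests on 8 of the 102 arrays of the series, 4 at each time, which were picked by the age, diet and time point given in their labels and by no measured value. Both groups were C57B6/J mice with a Per1-Venus BAC transgene, in which Per1 regulatory DNA drives a fluorescent protein. They were 47 to 57 weeks old. They had entered the study at 19 to 29 weeks and ate control diet without limit for the 25 weeks of the experiment, which followed an adaptation of 3 weeks. The same contrast exists in adult mice under calorie restriction (CR, 30% less food) and in aged mice (83 to 97 weeks) on either diet. Each collection day served a single time point, so the day of collection and the time of day cannot be told apart. The labels do not give the sex of the animals, the number of mice behind each array or the markers used to isolate the cells. The p-values therefore measure a spread between arrays, which in the main fit described below is pooled over all 102.

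Almost every cell carries a circadian clock, a loop in which the activators Arntl (also called Bmal1) and Clock switch on the genes of their own repressors, the Per and Cry proteins. A second loop through the Nr1d receptors represses Arntl. The clock drives output factors such as Dbp, Tef and Hlf, and in the epidermis it is known for timing DNA replication and division of the basal stem cells to different parts of the day.

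Values are log2 expression levels that the authors normalised with RMA, so a difference of 1 is a doubling. A gene is said to have changed, risen or fallen where the adjusted p (Benjamini-Hochberg over 13383 genes, limma, two-sided) was under 0.05 in the fit of all 102 arrays. That fit holds 24 means, 1 for every combination of age, diet and time, and 1 shared spread. It called 3388 genes (25.3% of those tested), of which 2551 were higher at ZT12 (19.1%) and 837 higher at ZT0 (6.25%). These 2 shares are the background for the counts of each list below. The shared spread was narrower than that of the ZT0 arrays. The median standard deviation of a gene was 0.362 at ZT0, the widest of the 24 groups, against 0.167 at ZT12 and 0.122 to 0.309 in the other groups. The ZT0 arrays correlated with each other at a mean r of 0.908 to 0.947 and the ZT12 arrays at 0.984 to 0.987. The level of control transcripts at the 3′ end minus that at the 5′ end, which grows as RNA degrades, was 0.50 on ZT0 replicate 1, the highest of all arrays, and 0.27 on replicate 2, while the other 6 arrays lay between −0.12 and 0.00. Replicates 1 and 4 of ZT0 had a compressed range of levels (standard deviation over probe sets 1.81 and 1.76, against 1.89 to 2.00 on the other 6 arrays).

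The counts differed between fits, so 4 further fits were run. Results below give mainly the 8-array fit and the calls shared by all 5 fits, and the other fits for some lists only. A fit of the 8 arrays alone called 223 genes (1.67%), 121 higher at ZT12 (0.904%) and 102 higher at ZT0 (0.762%), all of them also called in the fit of all arrays. Without ZT0 replicates 1 and 4, 660 genes were higher at ZT12 (4.93%) and 793 higher at ZT0 (5.93%), so the excess of genes higher at ZT12 was gone. With a variance for each group, 941 (7.03%) and 245 (1.83%) were called, and with the 3′ minus 5′ level as a covariate 672 (5.02%) and 364 (2.72%). Of the 3388 genes called, 909 (26.8%) were also called with that covariate. All 5 fits called 175 genes (1.31%), 100 higher at ZT12 (0.747%) and 75 higher at ZT0 (0.56%). The accounts below lead with these. Values of the ZT0 and ZT12 arrays did not overlap for 1526 genes in favour of ZT12 (11.4%) and for 407 in favour of ZT0 (3.04%). The median change over all tested genes was 0.09 (0.13 after centring each array on its median).

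The cells carried the transcripts of basal keratinocytes. All 9 basal markers, among them Krt5, Krt14 and Itga6, lay above the floor of 4.735 used for testing, and their mean level was 11.16 to 11.43 on the ZT0 arrays and 11.42 to 11.62 on the ZT12 arrays. Some markers of other cell types also lay above this floor. Of 9 suprabasal keratinocyte markers 8 did, with Flg below. The mean level of all 9 was 8.26 to 8.48 at ZT0 and 8.28 to 8.68 at ZT12. Over the 8 arrays Krt1 (11.47 to 12.04) and Krt10 (11.48 to 12.10) were nearly as high as the basal Krt5 (11.99 to 12.49). The floor is the 30th percentile of probe set means, so passing it does not show that a cell type was present. Among measured markers it was passed by 5 of 7 for muscle and 4 of 7 for dermal fibroblasts. For macrophages, mast cells and neutrophils 5 of 10 passed. The mean level of all 10 markers of bulge hair follicle stem cells was 7.07 to 7.60 at ZT0 and 6.88 to 7.23 at ZT12. Of these, Cd34, Lgr5 and Lhx2 were below the floor and 7 above it. All 6 measured markers of the infundibulum, the upper hair follicle, were above it (8.40 to 9.05 against 7.97 to 8.63). Of Langerhans and dendritic cell markers 7 of 8 were above it, with Cd207 below (mean of all 8, 5.84 to 5.96 against 6.07 to 6.25). So were 5 of 6 T cell markers, with Ptprc below (mean of all 6, 5.31 to 5.70 against 5.27 to 5.48). In contrast 5 of 8 melanocyte markers and 3 of 3 adipocyte markers were below it.

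Some of these markers moved with the time of day. Of the 9 basal markers 5 rose and none fell, Krt15 among them, where 19.1% of all tested genes rose. The basal list median was 0.22, and 0.10 without ZT0 replicates 1 and 4, and no basal marker passed in the 8-array fit. Sox9, a transcription factor of hair follicle stem cells, was at 11.03, 10.11, 8.49 and 8.25 at ZT0 and at 8.00, 7.13, 6.29 and 7.04 at ZT12. The ZT0 arrays were all higher, with replicates 1 and 2 highest, and the gene fell by 2.35 ± 0.41 (adjusted p = 2.24e-05, and 0.0725 in the 8-array fit). Foxc1, another bulge factor, fell by 1.08 ± 0.27 (0.176 in the 8-array fit), Krt15 rose by 0.36 ± 0.08, and the list median was −0.27. In the infundibulum list Defb6 fell by 1.31 ± 0.51 (adjusted p = 0.0481, and 0.135 in the 8-array fit), a call lost without any of 6 of the 8 arrays (−1.04 to −1.43). The median of that list was −0.55, and −0.86, −1.05 and −0.72 in aged control, adult CR and aged CR. Of the T cell markers Thy1 fell by 0.84 ± 0.32 (0.075 in the 8-array fit). The other 4 tested ranged from −0.18 (Cd3d) to 0.25 (Cd2) and were not called. The median of the T cell list was −0.13, and 0.21 without ZT0 replicates 1 and 4. The 8 tested suprabasal markers had a median change of −0.02, and none of them was called (0 at an unadjusted p under 0.05 in the limma fit of the 8 arrays). The part of these markers' cells in the changes described below was not tested. The level of Xist, which is made from an inactive X, was above that of the Y-linked transcripts on 2 of 4 arrays at each time, so the times were balanced in this respect. In bulk samples fewer cells of a type and less RNA per cell cannot be told apart.

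The clock stood in opposite states at the 2 times. All 3 output factors of the PAR bZIP family, which activate genes with a D-box, rose at ZT12 in all 5 fits. So did 5 of the 11 tested repressors, namely Per2, Per3, Cry2, Nr1d2 and Ciart, while the activator Arntl fell. In the fit of all arrays 6 repressors rose and 3 fell, with a list median of 1.18, and 2 of 5 tested activators rose and 2 fell, with a median of −0.41.

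Dbp was at 5.75, 5.41, 5.83 and 5.87 on the ZT0 arrays and at 8.59, 8.95, 9.11 and 7.83 on the ZT12 arrays. Every ZT12 array exceeded every ZT0 array by nearly 2 log2 units or more. The change was 2.90 ± 0.31 (standard error, SE, here and below), with an adjusted p of 3.59e-11 in the fit of all arrays and 0.00319 in that of the 8. Tef was at 7.51, 7.53, 7.77 and 7.82 against 9.66, 9.55, 9.71 and 9.40, a tight separation with a change of 1.92 ± 0.15. Hlf was at 7.24, 7.73, 8.37 and 8.28 against 9.50, 9.46, 9.81 and 9.56, a change of 1.68 ± 0.19. Replicates 1 and 2 of ZT0 were the lowest for Hlf, and the groups did not overlap.

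Among the repressors, Per2 was at 5.96, 5.84, 6.19 and 5.58 at ZT0 and at 7.86, 7.54, 8.31 and 8.47 at ZT12, a change of 2.15 ± 0.19 (adjusted p = 4.01e-15, and 0.00508 in the 8-array fit). Per3 was at 7.68, 6.88, 5.93 and 6.19 against 9.33, 8.69, 9.36 and 9.08, a change of 2.45 ± 0.32. The ZT0 arrays of Per3 were spread over more than 1.5 log2 units, yet all lay below ZT12. Nr1d2, a nuclear receptor that represses Arntl, was at 8.06, 8.12, 8.38 and 7.79 against 9.95, 9.42, 9.97 and 9.86, a change of 1.71 ± 0.21. Cry2 changed by 1.68 ± 0.19 and Ciart, a repressor of the Clock and Arntl dimer, by 1.18 ± 0.16, and neither overlapped between the times. Per1 was at 7.87, 9.03, 7.71 and 7.02 against 9.50, 9.27, 9.69 and 9.52. All 4 ZT12 arrays were above all ZT0 arrays, but ZT0 replicate 2 came close, and the change of 1.59 ± 0.24 (adjusted p = 1.08e-06) missed the threshold in the 8-array fit (adjusted p = 0.0558). Whether the probe set also reads the Per1-Venus transgene was not tested.

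Arntl was at 8.97, 9.44, 9.34 and 8.66 at ZT0 and at 6.92, 5.73, 6.16 and 7.90 at ZT12. Here the ZT12 arrays were the spread-out group and replicate 4 came nearest to ZT0. The gene fell by 2.43 ± 0.46 (adjusted p = 7.03e-05, and 0.0274 in the 8-array fit). Npas2, which can stand in for Clock, fell by 0.63 ± 0.16 in the fit of all arrays (adjusted p = 0.0894 in the 8-array fit). Clock itself had a change of −0.41 ± 0.21 and was not called (adjusted p = 0.154).

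The other members of the lists rest on the shared spread or on single arrays. Nfil3, which binds the D-box as a repressor, fell by 0.97 ± 0.30 (adjusted p = 0.0895 in the 8-array fit) and lost its call without ZT12 replicate 2 (−0.75, adjusted p = 0.0789). Cry1 fell by 1.08 ± 0.36, with ZT0 values of 6.38, 7.62, 7.74 and 6.39 against 6.35, 5.45, 5.87 and 6.14. Replicates 1 and 4 of ZT0 lay beside the ZT12 arrays, and the call was lost without ZT0 replicate 2 (−0.88), ZT0 replicate 3 (−0.85) or ZT12 replicate 2 (−0.91). Bhlhe40 fell by 0.73 ± 0.26 and lost its call without any of ZT0 replicate 1 (−0.57), ZT0 replicate 2 (−0.59), ZT12 replicate 1 (−0.66) and ZT12 replicate 2 (−0.62). Rora rose by 0.53 ± 0.15, a call lost without ZT0 replicate 1 (0.39, adjusted p = 0.081). Arntl2 rose by 0.50 ± 0.16, a call lost without ZT0 replicate 2 (0.44) or ZT12 replicate 3 (0.36). The casein kinases Csnk1d and Csnk1e, which phosphorylate the Per proteins, were not called (−0.04 ± 0.19 and 0.20 ± 0.18), and their sign turned under other scalings.

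**Figure D1:**
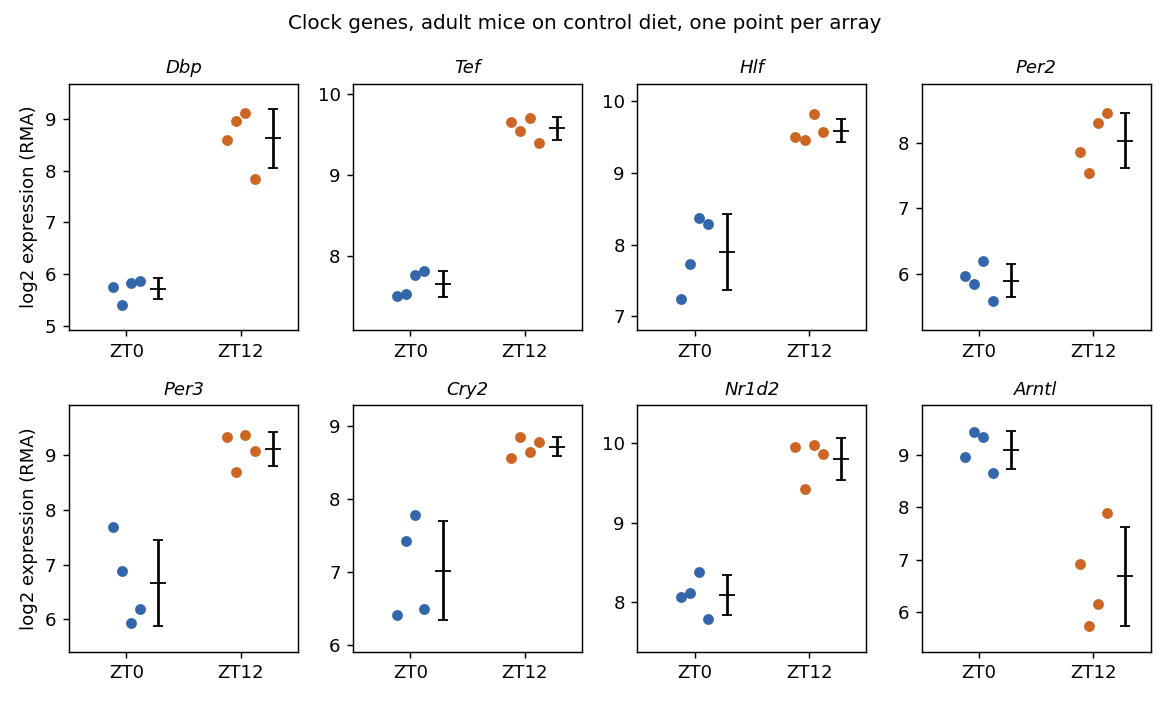
Levels of 8 clock genes on each array (points, log2 RMA expression, one vertical scale per gene) at ZT0 (blue) and ZT12 (orange) in adult mice on control diet, with the mean ± SD of 4 arrays in black. The 7 genes other than Arntl sit higher on every ZT12 array, and Arntl sits higher on every ZT0 array.

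The promoters shown are of clock genes that rose in all 5 fits, and were chosen because they hold a clock motif. They are stretches upstream of the start site from RefSeq (GRCm38.p6), 5′ to 3′ on the strand of the gene, with motifs in capitals. The E-box CACGTG is the site of Arntl and Clock, and the D-box TTATGTAA that of Dbp, Tef, Hlf and Nfil3. Ciart (chr3:95882229-95882348, minus strand) holds 3 E-boxes in 120 bases, Tef (chr15:81802509-81802588, plus strand) holds 1 in the 80 bases shown, and Per3 (chr4:151044780-151044859, minus strand) holds a D-box.
Ciart: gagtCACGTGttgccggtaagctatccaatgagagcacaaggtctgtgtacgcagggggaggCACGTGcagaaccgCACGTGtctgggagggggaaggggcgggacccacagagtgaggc
Tef: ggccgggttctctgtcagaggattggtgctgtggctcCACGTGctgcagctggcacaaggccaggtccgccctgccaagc
Per3: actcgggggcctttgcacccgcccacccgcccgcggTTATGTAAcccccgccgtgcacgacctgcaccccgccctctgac
Windows were found for 7 of the 8 clock genes that rose in all 5 fits. An E-box stood in windows of 2 of them and a D-box in 1, while Dbp, Hlf, Cry2 and Nr1d2 held neither. Over all 32851 promoter windows of 300 bases, 7.15% held an E-box and 0.938% a D-box on either strand. Of the 111 windows found for the 100 genes that rose in all 5 fits, 18.9% held an E-box, and of the 87 windows of the 75 genes that fell, 1.15% did. Windows were found for 89 and 60 of these genes. These shares are descriptions of sequence, with no test.

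The largest rises mixed the clock with targets of the glucocorticoid receptor. Sphk2, a sphingosine kinase, had the largest rise, with 6.35, 5.70, 6.56 and 6.04 at ZT0 and 10.16, 10.20, 10.38 and 9.86 at ZT12. The change was 3.99 ± 0.33 (15.9-fold), and the groups were more than 3 log2 units apart. In the annotation of GRCm38.p6 Sphk2 overlaps its neighbour Dbp, and the signals of the 2 genes were not separated here.

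Tsc22d3, which encodes the glucocorticoid-induced leucine zipper, rose from 5.76, 7.13, 7.38 and 6.51 to 9.85, 9.38, 10.27 and 9.91, a change of 3.16 ± 0.29 (adjusted p = 2.08e-14, and 0.00508 in the 8-array fit). Every ZT12 array lay at least 2 log2 units above the ZT0 arrays. Fkbp5, a co-chaperone that restrains the glucocorticoid receptor, rose from 5.93, 6.44, 6.50 and 6.19 to 7.58, 7.85, 8.77 and 9.21, a change of 2.09 ± 0.37. Zbtb16, a zinc finger repressor, rose by 1.92 ± 0.35. All 3 were called in all 5 fits. Of the 14 tested glucocorticoid targets 6 rose, Per1 among them, and none fell, where 19.1% of all tested genes rose. The list median was 0.22. The members not called ranged from Errfi1 (−0.55) to Sgk3 (0.30). The largest rises also held Adh1, an alcohol dehydrogenase that acts on retinol (2.23 ± 0.35), and the receptor Gpr146 (2.06 ± 0.38, with ZT0 replicate 1 far below the rest at 5.94), both called in all 5 fits. Txnip, which binds thioredoxin and curbs glucose uptake, rose from 10.33, 10.96, 9.79 and 10.36 to 12.16, 11.68, 12.41 and 12.23 (1.76 ± 0.24).

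A few of the largest rises rest on ZT0 arrays that disagree with each other. Hes7 was at 6.50, 8.16, 6.00 and 4.06 at ZT0 and between 8.02 and 8.48 at ZT12, so that ZT0 replicate 2 lay within the ZT12 range. Its change of 2.05 ± 0.70 lost the call in the 8-array fit (adjusted p = 0.121), without ZT0 replicate 4 (1.34) and without ZT12 replicate 3 (1.96, adjusted p = 0.0544). Apoe, the lipid carrier, was at 6.88, 8.15, 10.82 and 10.76 against 10.70 to 11.39. Only replicates 1 and 2 of ZT0 were low, and the call (1.98 ± 0.74) was lost in the 8-array fit (adjusted p = 0.176) and without either of them (1.22 and 1.65), as it was without ZT12 replicates 1, 3 or 4 (1.96, 1.90 and 1.95). Ung, the uracil DNA glycosylase, was at 5.26, 6.81, 7.57 and 7.95 against 8.76 to 9.26, did not overlap, and had an adjusted p of 0.0554 in the 8-array fit (change 2.20 ± 0.38).

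Genes of DNA replication were higher at ZT12. Of the 19 tested genes for origin licensing and the replicative helicase, 14 rose and none fell (median change 0.96, against 0.09 over all genes), 10 of them also in the 8-array fit and 9 in all 5 fits. Of the 27 tested polymerase and fork genes 25 rose and none fell (median 0.84), 10 of them also in the 8-array fit and 9 in all 5 fits. The mean level of the licensing and helicase list was 7.03, 7.04, 7.41 and 7.07 on the ZT0 arrays and 8.11, 8.00, 8.09 and 8.02 on the ZT12 arrays. That of the polymerase and fork list was 6.88, 7.13, 7.59 and 7.18 against 8.22, 8.05, 8.15 and 8.10. Both lists separated the times on every array. With the 3′ minus 5′ level as a covariate 12 of the 14 and 20 of the 25 calls were kept.

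The helicase itself is a ring of the proteins Mcm2 to Mcm7, and all of those tested rose: Mcm2 by 1.78, Mcm3 by 1.90, Mcm4 by 1.30, Mcm5 by 1.95, Mcm6 by 1.42 and Mcm7 by 0.96, each in all 5 fits. Mcm5 was at 7.79, 8.25, 9.12 and 8.81 at ZT0 and at 10.36, 10.22, 10.62 and 10.56 at ZT12 (SE 0.28, adjusted p = 2.73e-07, and 0.0152 in the 8-array fit). Mcm6 was at 6.64, 6.80, 7.07 and 6.67 against 8.34, 7.84, 8.45 and 8.23. For both, the lowest ZT12 array was well above the highest ZT0 array. Gins2, a subunit of the complex that completes the active helicase, was at 7.70, 7.43, 8.32 and 8.44 against 9.82, 9.68, 9.82 and 9.81, a change of 1.81 ± 0.20, and its partner Gins1 changed by 1.60. Not all licensing genes took part: the origin recognition subunits Orc1, Orc4 and Orc6 had changes of −0.24, −0.02 and −0.28 and were not called, while Orc5 rose by 1.02.

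Among the fork genes, Timeless, which protects stalled forks, was at 5.32, 5.07, 5.98 and 5.32 at ZT0 and at 7.12, 6.85, 7.16 and 6.76 at ZT12, a change of 1.55 ± 0.21. Prim1, the primase that starts each new strand, changed by 1.23 ± 0.17. Pole2, a subunit of the leading strand polymerase, changed by 1.53 ± 0.26. Lig1, the ligase that joins Okazaki fragments, was at 6.90, 7.74, 8.77 and 8.27 against 9.58, 9.27, 9.69 and 9.74 (1.65 ± 0.24), with ZT0 replicate 1 the lowest. Pcna, the sliding clamp, rose by 0.47 in the fit of all arrays and not in the 8-array fit (adjusted p = 0.277), and Uhrf1 (0.49) and Dna2 (0.05) were not called.

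Genes that supply the fork moved the same way with fewer calls beyond the shared spread. Of 14 tested genes of nucleotide synthesis 11 rose and none fell (median 0.79), 2 of them in all 5 fits. These were Tyms, thymidylate synthase, at 8.55, 8.34, 8.99 and 8.75 against 9.55, 9.40, 9.91 and 9.83 (1.01 ± 0.20), and Paics, of purine synthesis, at 9.49, 10.06, 10.18 and 9.96 against 10.77, 10.73, 10.76 and 10.69 (0.81 ± 0.11). Neither gene overlapped between the times. Of 27 tested genes of DNA damage response and repair 13 rose and none fell (median 0.57, and 0.31 without ZT0 replicates 1 and 4), and Chek1, the checkpoint kinase of stalled forks, was called in all 5 fits (1.17 ± 0.20). Atm, the kinase of double strand breaks, rose by 1.07 ± 0.17 and had an adjusted p of 0.0601 in the 8-array fit.

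The regulators of entry into S phase were split. Ccnd1, cyclin D1, was at 10.31, 10.41, 10.61 and 10.49 at ZT0 and at 11.25, 11.21, 11.39 and 11.29 at ZT12, a change of 0.83 ± 0.09 (adjusted p = 1.17e-10, and 0.0245 in the 8-array fit). Ccnd2, cyclin D2, was at 10.05, 10.82, 11.17 and 11.07 against 11.90, 11.86, 12.20 and 12.08 (1.23 ± 0.17). Both were called in all 5 fits, and the ZT12 arrays were tight. E2f1, the activator of S phase genes, rose by 0.51 ± 0.13 (adjusted p = 0.0884 in the 8-array fit), and Wee1, which holds back Cdk1, by 1.04 ± 0.18 (0.0529). Of the 21 tested genes 7 rose and 2 fell, with a median of 0.02, where 19.1% of all tested genes rose and 6.25% fell.

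Genes of mitosis leaned the other way, with calls that the 8-array fit did not share. Over all tested genes 6.25% were higher at ZT0 and 19.1% higher at ZT12. Of 25 tested mitosis regulators 6 were higher at ZT0 and 1 higher at ZT12 (median −0.17). Of 28 tested genes of the spindle, kinetochore and cytokinesis 7 were higher at ZT0 and none at ZT12 (median −0.30). Without ZT0 replicates 1 and 4 the falls were 5 and 7, and with the 3′ minus 5′ level as a covariate 0 of 7 and 1 of 7 calls were kept. In the limma fit of the 8 arrays no gene of either list passed, though 7 and 10 were higher at ZT0 at an unadjusted p under 0.05. Ube2c, the ubiquitin conjugating enzyme of the anaphase promoting complex, was at 9.57, 8.92, 9.21 and 8.61 at ZT0 and at 7.94, 8.39, 8.06 and 8.28 at ZT12. It fell by 0.91 ± 0.24 without overlap (adjusted p = 0.00281, and 0.0642 in the 8-array fit). Cenpe, a kinetochore motor, fell by 0.66 ± 0.17, and Anln, of the cleavage furrow, by 0.97 ± 0.28, with ZT0 replicate 4 at 7.38 beside ZT12 arrays of 6.95 to 7.50.

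Several of these mitotic calls hang on ZT0 replicate 1. Without it Top2a (−0.98, then −0.78), Ttk (−0.79, then −0.59) and Aspm (−1.09, then −0.83) were not called, and nor was Cdc25b, the phosphatase that rose by 1.04 and then stood at 0.58. The mean level of the mitosis regulators was 7.45, 7.47, 8.01 and 7.49 at ZT0 and 7.38, 7.36, 7.33 and 7.46 at ZT12, so ZT0 replicate 3 alone stood clear of the rest. Central members such as Cdk1 (−0.17), Plk1 (−0.36), Aurka (0.14) and Foxm1 (0.05) were not called.

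**Figure D2:**
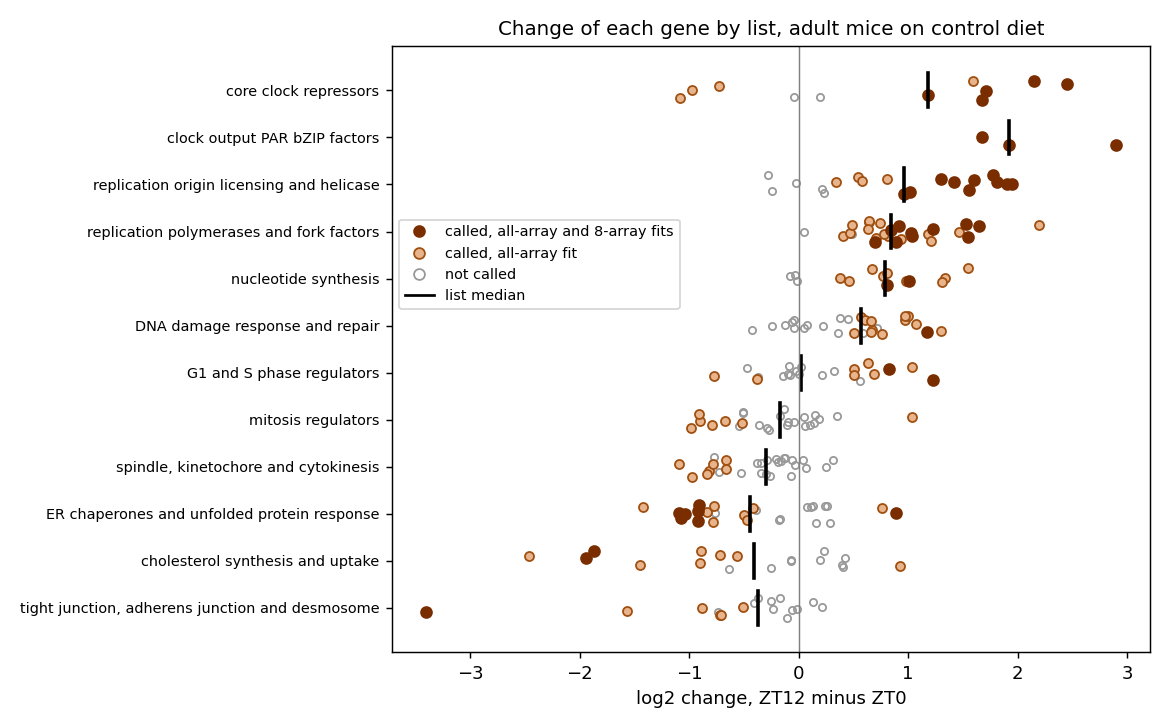
Change of each tested gene (points, log2, ZT12 minus ZT0) in 12 gene lists, with the list median as a black bar. Dark points were called in the fits of all and of 8 arrays, light points in the fit of all arrays alone, and open points were not called. Replication genes other than Orc1, Orc4 and Orc6 lie to the right of 0. The dark points of the replication lists reach 1.95, while the mitosis lists hold no dark point.

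Promoters of Mcm5 and Ube2c are shown as examples of the motifs known in the 2 phases of the cell cycle. Mcm5 (chr8:75109314-75109413, plus strand) holds 2 overlapping matches to the E2F motif TTTNNCGC, and Ube2c (chr2:164769829-164769928, plus strand) a match to the CHR motif TTTGAA on the opposite strand, in RefSeq sequence of GRCm38.p6 with matches in capitals.
Mcm5: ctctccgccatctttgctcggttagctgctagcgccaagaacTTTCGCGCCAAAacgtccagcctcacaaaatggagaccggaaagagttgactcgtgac
Ube2c: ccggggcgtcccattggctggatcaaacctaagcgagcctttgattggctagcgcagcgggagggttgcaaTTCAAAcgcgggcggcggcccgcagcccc
The E2F motif stood in 35.4% of 48 windows of the replication lists, in 13% of 46 windows of the mitosis lists and in 5.17% of all windows. The CHR motif stood in 12.5%, 76.1% and 17.9% of these windows. Windows were found for 37 of 46 tested replication genes and 44 of 53 tested mitosis genes.

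Genes of stress in the endoplasmic reticulum (ER) were higher at ZT0. Of 26 tested ER chaperones and members of the unfolded protein response 13 were higher at ZT0 and 2 at ZT12 (median −0.44). In the 8-array fit 6 and 1 passed, and 5 and 1 in all 5 fits. With the 3′ minus 5′ level as a covariate 7 of the 15 calls were kept. The response works through Atf4, which is made when translation is checked and which activates Ddit3, Trib3 and Chac1, and through Xbp1 and Atf6, which raise chaperones such as Hspa5. Atf4 was at 11.16, 11.14, 10.95 and 10.48 at ZT0 and at 9.89, 9.90, 10.12 and 10.21 at ZT12 and fell by 0.91 ± 0.17 (adjusted p = 5.27e-05, and 0.0452 in the 8-array fit).

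Targets of Atf4 fell as well. Chac1, which degrades glutathione, was at 7.23, 8.04, 7.05 and 6.47 against 4.32, 4.39, 4.51 and 4.79. At ZT12 it lay near or below the floor on every array, where array signal no longer tracks the transcript closely, so the difference of −2.69 ± 0.37 may understate the fall (adjusted p = 9.13e-08, and 0.00508 in the 8-array fit). Trib3, a pseudokinase that restrains Atf4, was at 6.42, 6.49, 6.72 and 6.21 against 5.17, 5.51, 5.44 and 5.57, and fell by 1.04 ± 0.18. Ddit3, also called Chop, was at 9.30, 9.24, 8.85 and 8.89 against 8.20, 8.03, 8.26 and 8.12, and fell by 0.92 ± 0.16. Sesn2, a stress sensor that restrains mTORC1, fell by 1.73 ± 0.32. None of these overlapped between the times, and all were called in all 5 fits.

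In the chaperone arm, Hspa5 (BiP) was at 10.42, 10.45, 10.41 and 10.16 at ZT0 and at 9.45, 9.09, 9.49 and 9.72 at ZT12 and fell by 0.92. Xbp1 was at 9.35, 9.66, 9.38 and 8.82 against 8.25, 8.19, 8.10 and 8.39 and fell by 1.07. Both were called in all 5 fits, with the groups apart. Herpud1, which helps to degrade ER proteins, went against its list, from 9.43, 9.76, 9.40 and 9.54 to 10.33, 10.28, 10.68 and 10.39 (0.89 ± 0.15, called in all 5 fits). Hyou1 fell by 1.42 in the fit of all arrays, but its ZT0 arrays ran from 8.46 to 10.76, with replicates 1 and 2 high, and the 8-array fit did not call it (adjusted p = 0.121). Pdia4 (0.08), Pdia6 (−0.18) and Atf6 (0.16) were not called. The promoter of Hspa5 is shown because it holds an ER stress element, which is CCAAT and CCACG with 9 bases between them (chr2:34771984-34772083, plus strand, RefSeq, GRCm38.p6, match in capitals).
Hspa5: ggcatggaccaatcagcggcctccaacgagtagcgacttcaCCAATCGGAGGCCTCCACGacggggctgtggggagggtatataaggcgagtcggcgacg
The element stood in 34.8% of 23 windows of this list and in 0.119% of all windows.

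Of 15 tested targets of p53, 3 were lower at ZT12 in all 5 fits. Gadd45a, a growth arrest protein, was at 10.32, 10.26, 9.93 and 9.28 at ZT0 and at 7.49, 6.80, 7.58 and 8.42 at ZT12 (−2.38 ± 0.48). Pmaip1, the death factor Noxa, was at 10.23, 10.43, 10.60 and 10.35 against 9.13, 8.89, 8.79 and 9.46 (−1.33 ± 0.27), and Sesn2 is described above. The groups did not overlap for any of the 3. Beyond these, 4 members rose in the fit of all arrays and none in the 8-array fit, among them Ccng1 (0.78 ± 0.20, adjusted p = 0.0567 in the 8-array fit). Over all tested genes 19.1% rose in the fit of all arrays. The list median was 0.03. Cdkn1a (p21), the best known target, had a change of −0.09 and was not called.

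Among genes with a name the largest fall was that of Cldn4, a claudin of tight junctions. It was at 8.59, 10.65, 7.80 and 8.80 at ZT0 and at 5.52, 5.07, 5.57 and 6.09 at ZT12, and fell by 3.40 ± 0.65 (adjusted p = 7.3e-05, and 0.0165 in the 8-array fit). Krt16, a keratin of wounded and hyperproliferative epidermis, was at 10.45, 10.93, 10.51 and 10.66 against 7.22, 7.21, 7.58 and 9.08, and fell by 2.86 ± 0.64. Sprr1a, of the cornified envelope, was at 11.53, 10.37, 10.48 and 9.52 against 7.08, 7.59, 7.17 and 9.12, and fell by 2.74 ± 0.61. ZT12 replicate 4 was the highest of its group for all 3, and for Sprr1a it came within 0.5 of ZT0 replicate 4.

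Itgb6, the subunit of an integrin that activates latent TGF-beta, was at 10.50, 9.94, 9.87 and 8.89 at ZT0 and at 6.71, 6.14, 6.96 and 7.92 at ZT12, and fell by 2.87 ± 0.52. Ehf, an epithelial transcription factor of the Ets family, was at 8.65, 8.42, 8.03 and 7.03 against 5.65, 5.45, 4.85 and 5.64, and fell by 2.63 ± 0.47. Again no ZT12 array reached a ZT0 array. Pde4b, a phosphodiesterase that breaks down cyclic AMP, was at 11.41, 11.70, 10.39 and 10.71 against 8.41, 7.94, 8.18 and 8.84, and fell by 2.71 ± 0.44. Abtb2 was at 8.34, 9.19, 7.86 and 7.44 against 5.06, 4.62, 5.09 and 4.96, and fell by 3.28 ± 0.53, close to the floor at ZT12, as with Chac1. Stx11 (−2.72 ± 0.48), Dnase1l3 (−2.66 ± 0.46) and Tsc22d2 (−2.87 ± 0.54) complete the largest falls called in all 5 fits. Nipal1 fell by 3.02 ± 0.71 and passed in the 8-array fit (adjusted p = 0.0152) but not in all 5.

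These falls were not shared by whole lists. Of 17 tested junction genes 6 fell and none rose (median −0.37), Cldn4 alone in all 5 fits. Cdh1, E-cadherin, was at 10.91, 10.97, 10.17 and 9.96 against 9.55, 9.54, 9.70 and 9.71 and fell by 0.88 ± 0.17 (adjusted p = 0.0825 in the 8-array fit), while the desmosomal genes Dsp (−0.11), Pkp1 (−0.01) and Dsc3 (−0.06) were not called. Of 22 tested genes of differentiation 5 fell and 1 rose (median −0.17), with Ehf and Sprr1a in all 5 fits, and Krt1 (0.14), Krt10 (−0.15) and Ivl (−0.12) were not called. The gene that rose was Tgm3, a transglutaminase (1.34, adjusted p = 0.0617 in the 8-array fit). Of 13 tested genes of injury and barrier stress 4 fell and none rose (median −0.39, and −0.11 without ZT0 replicates 1 and 4), and Krt16 alone was called in all 5 fits. Tslp, an alarm cytokine of keratinocytes, was at 7.01, 7.05, 5.77 and 4.91 against 4.36 to 4.79, fell by 1.64 ± 0.35 and was not called in the 8-array fit (adjusted p = 0.0776). Krt6a, the usual partner of Krt16, fell by 0.64 ± 0.19, a call lost without ZT12 replicate 1 (−0.45, adjusted p = 0.0874).

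**Figure D3:**
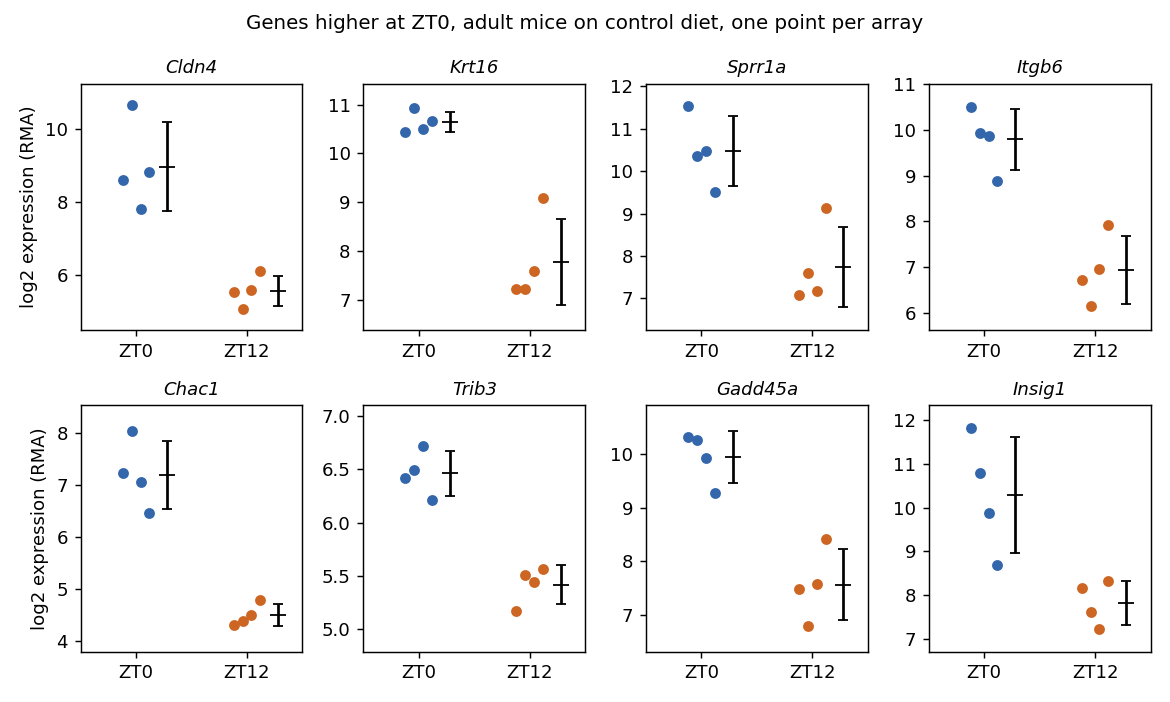
Levels of 8 genes that were higher at ZT0, on each array (points, log2 RMA expression, one vertical scale per gene), with the mean ± SD of 4 arrays in black. In each panel the 4 blue ZT0 points lie above the 4 orange ZT12 points. Insig1 shows the widest ZT0 group, from 8.68 to 11.81, and was not called in the 8-array fit.

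Genes of cholesterol synthesis and uptake were divided. Of 18 tested members 8 fell and 1 rose at ZT12 (median −0.40), 2 of the falls in the 8-array fit and 1 in all 5 fits. With the 3′ minus 5′ level as a covariate 4 of the 9 calls were kept. Idi1, which makes the isoprene unit, was at 10.91, 9.80, 9.79 and 8.93 at ZT0 and at 8.20, 7.91, 7.47 and 8.37 at ZT12 and fell by 1.87 ± 0.39, called in all 5 fits. Sqle, squalene epoxidase, was at 8.66, 8.18, 8.68 and 7.10 against 5.97, 6.29, 5.94 and 6.67 (−1.94 ± 0.48, adjusted p = 0.0278 in the 8-array fit). Insig1, the sterol sensor that retains the Srebp factors in the ER, was at 11.81, 10.78, 9.88 and 8.68 against 8.15, 7.60, 7.23 and 8.32 (−2.46 ± 0.50, adjusted p = 0.0599 in the 8-array fit). The ZT0 values of Idi1 and Insig1 fall over a range wider than the gap between the groups, with replicate 1 the highest and replicate 4 the lowest. Hmgcs1 (−0.07), Nsdhl (−0.07) and Fdps (0.40) were not called.

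Genes of the mitochondria rose with calls that the 8-array fit did not share. Of 24 tested genes of oxidative phosphorylation 15 rose and none fell (median 0.65), but none passed in the limma fit of the 8 arrays, where 12 had an unadjusted p under 0.05. Without ZT0 replicates 1 and 4 the median was 0.40 and 3 passed. The mean level of the list was 8.85, 9.68, 10.24 and 10.11 on the ZT0 arrays and 10.29, 10.35, 10.32 and 10.30 on the ZT12 arrays. The distance from ZT12 was largest on ZT0 replicates 1 and 2, the arrays of this comparison with the highest 3′ minus 5′ level (0.50 and 0.27). With that level as a covariate 3 of the 15 calls were kept. Sdha, of complex II, was at 8.64, 9.26, 9.86 and 9.69 against 10.08, 9.88, 10.24 and 10.27 (0.75 ± 0.15, adjusted p = 0.13 in the 8-array fit). Of 16 tested genes of fatty acid oxidation 5 rose and none fell (median 0.29), where 19.1% of all tested genes rose. Ppara, the receptor that drives this pathway, was at 6.72, 7.06, 8.18 and 7.50 against 8.77, 8.65, 8.62 and 8.54 (1.28 ± 0.22, adjusted p = 0.0519 in the 8-array fit). Sod2, the mitochondrial superoxide dismutase, was called in all 5 fits, at 9.28, 9.31, 9.88 and 9.60 against 10.29, 10.37, 10.43 and 10.47 (0.87 ± 0.15). Hk2, a hexokinase of glycolysis, fell by 1.97 ± 0.43, with ZT0 arrays from 7.37 to 10.17 and an adjusted p of 0.0776 in the 8-array fit.

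The other time points of the same condition place ZT0 and ZT12 within the day. The genes were chosen for a difference between ZT0 and ZT12, and the profiles reuse those arrays, so extremes at these times are favoured by the choice. As a description over group means (3 to 4 arrays each), 94 of the 100 genes higher at ZT12 in all 5 fits had their lowest mean at ZT0 and 86 their highest at ZT12. All 75 genes higher at ZT0 had their highest mean there, and 60 their lowest at ZT12. Over all 13383 tested genes 5484 were lowest and 2610 highest at ZT0, and 2640 highest and 1393 lowest at ZT12. The genes higher at ZT0 stood a median of 1.06 above the mean of the neighbouring times ZT4 and ZT20, and those higher at ZT12 a median of 0.72 below it, given as −0.72. At ZT12 the distances from ZT8 and ZT16 were smaller, 0.32 for the genes higher there and −0.36 for the others.

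Single genes differed in their profiles. Per2 had means of 5.89, 6.16, 7.19, 8.04, 7.47 and 6.45 from ZT0 to ZT20, a gradual climb to ZT12 and descent. Mcm5 followed the same course, with 8.49, 9.29, 9.80, 10.44, 9.98 and 9.40. Chac1 instead stood at 7.19 at ZT0 and at 4.55, 4.76, 4.50, 4.39 and 4.27 from ZT4 on, so ZT0 alone was high. Abtb2 was alike, with 8.21 at ZT0 and 4.74 to 5.66 at the other times. Tsc22d3 was the mirror image, with 6.69 at ZT0 and 9.12 to 10.11 at the other times. Cldn4 lay between, at 8.96, 7.12, 6.59, 5.56, 6.62 and 6.55. Ube2c was as high at ZT4 (9.33) as at ZT0 (9.08) and lowest at ZT12 (8.16). Zbtb16, Txnip and Fkbp5 were lowest at ZT0 but not highest at ZT12. Zbtb16 was at 8.20 at ZT0 and at 9.95 to 11.01 at the other times, and Txnip at 10.36 and at 11.87 to 12.21. Fkbp5 was at 6.26, 8.71, 6.86, 8.35, 9.34 and 9.15 from ZT0 to ZT20.

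**Figure D4:**
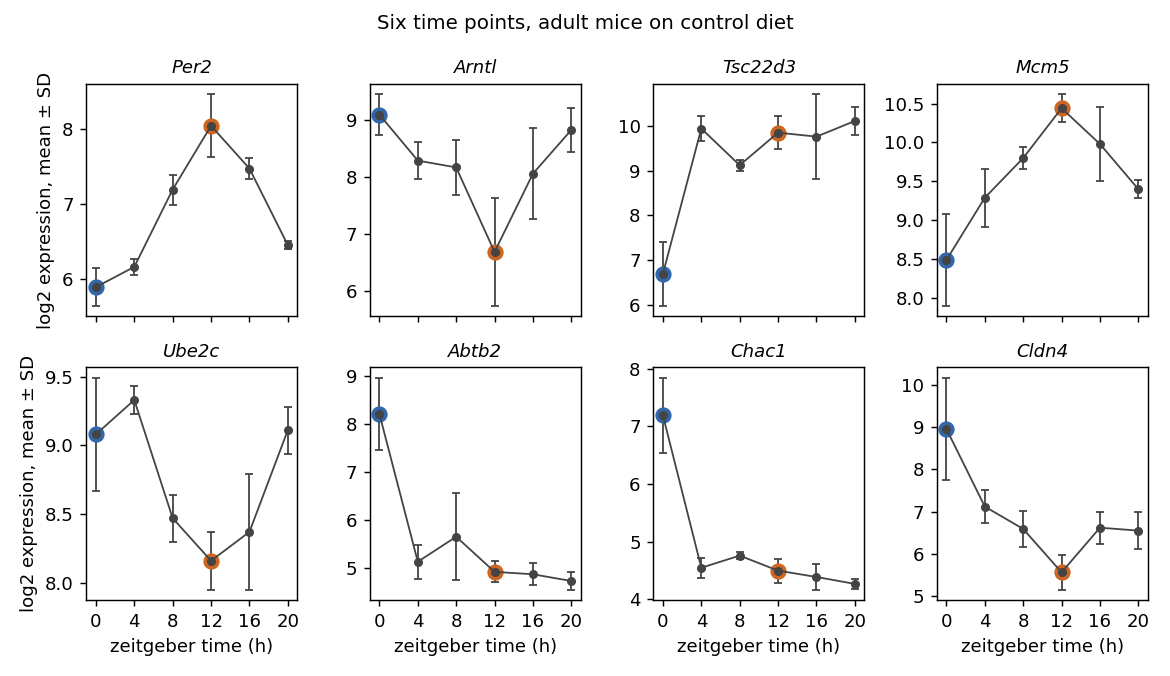
Mean ± SD (log2 RMA expression) of 8 genes at the 6 zeitgeber times in adult mice on control diet, 4 arrays per time and 3 at ZT8, with ZT0 in blue and ZT12 in orange. Per2 and Mcm5 climb step by step to ZT12, while Tsc22d3, Abtb2 and Chac1 differ at ZT0 from all 5 other times.

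The same contrast in the other conditions rests on other arrays, 8 for aged control, 10 for adult CR and 9 for aged CR, fitted in the same model. It called 423 genes higher at ZT12 (3.16%) and 266 higher at ZT0 (1.99%) in aged control, 569 (4.25%) and 215 (1.61%) in adult CR, and 672 (5.02%) and 376 (2.81%) in aged CR. Of the 175 genes called in all 5 fits, 175 had the same sign in aged control, 174 in adult CR and 175 in aged CR, where 69.8%, 72.7% and 77.5% of all genes did. Of them 141, 112 and 110 were also called there with that sign. Their medians were 1.14 (adult control), 0.87, 0.80 and 0.68 for the 100 genes higher at ZT12, and −1.50, −1.10, −0.74 and −0.80 for the 75 higher at ZT0. The genes were chosen for large changes in adult control, so the smaller medians elsewhere are no sign of a difference.

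Tests of the difference itself found little. Between adult and aged control no gene differed (0%, limma; 965 at an unadjusted p under 0.05), and between adult control and adult CR none (0%, 1369 unadjusted). With weights for each array, 539 and 1623 were called. For adult CR, leaving out ZT0 replicate 3 gave 94 and leaving out replicate 4 gave 44. Between adult control and aged CR 2 genes differed (0.0149%), and 161 with weights for each array. None differed without ZT0 replicates 1 and 4, without ZT0 replicate 2, with a variance per group or with the mean of probe sets. Sphk2 changed by 3.99 ± 0.33 in adult control and by 1.54 ± 0.31 in aged CR, a difference of 2.45 ± 0.45 (adjusted p = 0.00619). Its signal was not separated from that of its overlapping neighbour Dbp. Tex9 changed by 0.55 ± 0.13 against −0.32, a difference of 0.87, and its ZT12 replicate 1 stood apart at 6.38.

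Clock genes had values in all 4 conditions that can be set side by side. Per2 changed by 2.15, 2.03, 2.21 and 2.04 in adult control, aged control, adult CR and aged CR. Dbp changed by 2.90, 2.90, 1.85 and 1.02, and Nr1d2 by 1.71, 1.50, 1.02 and 0.56. Per2 ranged from 2.03 to 2.21, while Dbp and Nr1d2 were smallest in aged CR, though the differences of Dbp and Nr1d2 from adult control did not pass the threshold. Arntl changed by −2.43, −2.11, −1.70 and −0.44, and its differences from adult control did not pass either. In aged CR the changes of Arntl and Nr1d2 were not called. Among replication genes Mcm5 changed by 1.95, 1.49, 1.40 and 1.00, all called. Chac1 changed by −2.69, −2.31, −0.66 and −1.60, and its change in adult CR was not called (adjusted p = 0.253). The median change of the 24 genes of oxidative phosphorylation was 0.65 in adult control and 0.17, 0.14 and 0.31 elsewhere, where 0, 0 and 2 of them rose.

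**Figure D5:**
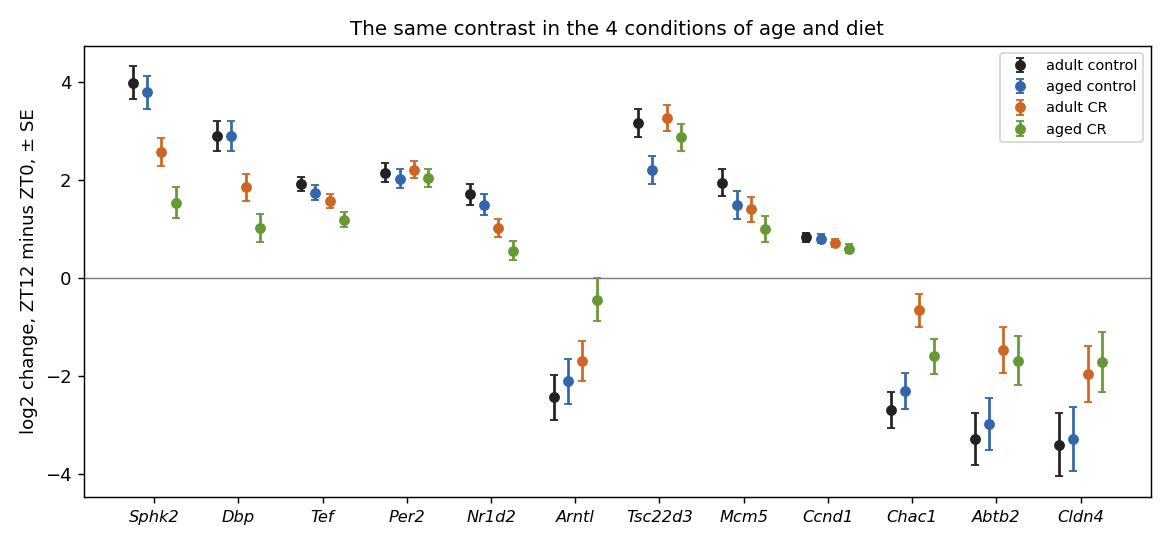
Change of 12 genes (log2, ZT12 minus ZT0, ± SE of the fit of all arrays) in adult control (black), aged control (blue), adult CR (orange) and aged CR (green). The 4 values of each gene share their sign, Per2 and Ccnd1 vary least between conditions, and Sphk2 differs most, from 3.99 in adult control to 1.54 in aged CR. The signal of Sphk2 was not separated from that of Dbp.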

How the data were processed

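The authors deposited log2 levels from Affymetrix arrays, summarised with RMA per the submitters' processing notes (its version is not given in the sources used here). Amplification took 17 cycles, starting at 25 ng of RNA, per the labels' protocols. RMA makes array distributions alike, so a shift shared by most genes would not show. Values were used as deposited. Of 45140 probe sets 28898 carried 1 gene symbol, 551 several and 15588 none, beside 103 controls. The brightest probe set stood for each of 17097 genes, and 13383 with a mean above the 30th percentile (4.735) were tested.

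Group means were fitted with limma 3.58.1 in R 4.3.3 (24 groups, 78 residual degrees of freedom, and 6 in the 8-array fit). The number of arrays limits the precision, and dim probe sets understate changes. Named genes were the 12 largest rises and falls (transcripts without a gene name left out), the clock lists, up to 4 called members with the smallest p of each other list, the sex-linked transcripts and the 6 smallest p of each difference between conditions. List members named outside this rule, such as Mcm2, Orc5, Hspa5, Xbp1, Hyou1 and Tgm3 and the members given as not called, were chosen after their values were seen. Members of 33 pathway lists and 14 marker lists were counted, with no test of a list. The comparison, lists and motifs were chosen with earlier results of these data known. The fits without ZT0 replicates 1 and 4 and with a variance per group were added after the data had been seen. Promoter windows of 300 bases were searched on both strands. The fit of all arrays, and not the further fits, was tested on simulated data. These data gave every group the same spread per gene, so the test did not cover the wider spread of the ZT0 arrays.

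Replicate numbers do not pair the samples. Per the labels each collection day served 1 time point, and deviations of same-numbered arrays correlated at −0.233, −0.34, −0.244 and −0.254.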

Additional observations from a re-analysis of the deposited data

Results flagged for a closer look

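Among the genes named, 316 groups of 4 arrays were examined for an array set far from the other 3, and 15 were found, where chance gives about 1 in 20 groups. At ZT12 replicate 4 stood high for Bmp2 (10.23, the others 9.20 to 9.34), Hspb8 (10.90), Id1 (8.94, the others 8.00 to 8.08) and Sesn2 (8.94, the others 8.12 to 8.23) and low for Fbxw9 (7.97, the others 8.19). Replicate 1 stood low for Krt6a (5.97, the others 6.66 to 6.75) and high for Tex9 (6.38, the others 5.82 to 5.87). Replicate 2 was low for Atm (8.15, the others 8.66 to 8.74) and Gins2 (9.68, the others 9.81 to 9.82), and replicate 3 was high for Psmb8 (10.58). At ZT0 replicate 1 stood high for Dcbld2 (9.31, the others 7.65 to 7.87) and low for Gpr146 (5.94, the others 7.48 to 7.69). Replicate 4 stood low for Anln (7.38, the others 8.40 to 8.61) and Nipal1 (8.45, the others 9.14 to 9.18), and replicate 3 high for Fbxw9 (7.75, the others 7.32 to 7.39).

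The change from ZT0 to ZT12 differed between adult control and aged CR for Sphk2 (difference 2.45) and for Tex9 (difference 0.87). This is by the test of the difference itself in the fit of all arrays. No gene differed without ZT0 replicates 1 and 4 or with a variance per group. The signal of Sphk2 was not separated from that of Dbp.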

How the results depend on the processing

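The counts of genes higher at ZT12 (2551) and higher at ZT0 (837) moved under several settings. They were 121 and 102 in the 8 arrays alone, 941 and 245 with a variance per group, 672 and 364 with the 3′ minus 5′ level as a covariate, and 660 and 793 without ZT0 replicates 1 and 4. In the 23 arrays of adult control 1664 were higher at ZT12, and with array weights 1456 were higher at ZT0. Leaving out 1 of the 8 arrays gave 1093 to 3319 higher at ZT12 and 459 to 1242 higher at ZT0, both lowest without ZT0 replicate 1. The 8-array fit has fewer arrays, and the cause of the other shifts was not tested. With the replicate block, whose numbers do not pair the samples, 2562 and 842 were called. Centring, other filters, the mean of probe sets, the trend with robust fit and the Xist covariate left both counts within 1.5 times.

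With array weights 539, 1623 and 161 genes differed in their change from aged control, adult CR and aged CR. Leaving out 1 array gave 0 to 94 for adult CR and 0 to 3 for aged CR. For aged CR the count was 1 after centring, with the replicate block, with the Xist covariate and with the 3′ minus 5′ covariate. It was 0 with the mean of probe sets, without ZT0 replicates 1 and 4 and with a variance per group.

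Of 150 named genes called, 49 were called in every setting and 149 kept their direction, Hnrnpr being the exception (−0.06 with the mean of probe sets). Among genes not called, signs turned for Csnk1d (0 after centring, and −0.34 to 0.12 leaving out 1 array), Csnk1e (−0.07 with array weights, −0.04 with the mean of probe sets, −0.10 without ZT0 replicates 1 and 4, and −0.02 to 0.34 leaving out 1 array) and the sex-linked Xist (0.06 with its covariate, and −1.33 to 0.96), Eif2s3y (0.88 with array weights, 0.70 with the 3′ minus 5′ covariate, and −1.03 to 0.61), Kdm5d (−0.08 to 0.95) and Uty (−0.07 to 0.78). The cause was not tested.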

Other observations

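In the lists of Wnt, Notch, TGF-beta and BMP, hedgehog and EGFR signalling, immediate early genes and the interferon response, 1 gene passed in the limma fit of the 8 arrays, Lfng of Notch signalling. In the fit of all arrays 2 of 7 hedgehog and 2 of 14 EGFR genes were called, against 25.3% of all tested genes. Over all tested genes 19.1% rose and 6.25% fell, to be set beside the counts that follow. The shares of rises in the Notch, TGF-beta and BMP, immediate early and interferon lists were near the first of these. Of 21 tested genes of Wnt signalling 7 rose and 2 fell (median 0.30, and 0.10 without ZT0 replicates 1 and 4), with 5 and 1 at an unadjusted p under 0.05 in the 8-array fit. Axin2, a feedback inhibitor and common readout of this pathway, was at 7.10, 7.89, 7.78 and 7.27 at ZT0 and at 8.75, 8.23, 8.39 and 8.30 at ZT12 (0.91 ± 0.21, adjusted p = 0.0631 in the 8-array fit), with no overlap. In Notch signalling 3 of 12 rose and 1 fell. Lfng, a glycosyltransferase that modifies Notch receptors, was at 8.02, 8.44, 8.03 and 7.34 against 8.94, 8.87, 9.25 and 9.11 (1.08 ± 0.26) and passed in the 8-array fit (adjusted p = 0.0478), though not in all 5 fits.

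Of 21 tested genes of TGF-beta and BMP signalling 4 rose and 5 fell (median 0.05; in the 8-array fit 4 and 5 at an unadjusted p under 0.05). Skil, a corepressor of the Smads, was at 11.39, 10.96, 9.48 and 8.70 against 7.97, 7.39, 7.31 and 8.27 and fell by 2.39 ± 0.48 (adjusted p = 0.0558 in the 8-array fit). Smad7, the inhibitory Smad, fell by 1.22 ± 0.27 (0.0513), while Id1, a target of BMP signalling, rose by 1.34 ± 0.35 (0.0755). Immediate early genes were split, 4 of 25 higher at ZT12 and 5 higher at ZT0. Ier2 (1.35 ± 0.29) and Junb (0.85 ± 0.19) rose, and Ier3 (−0.91 ± 0.25) and Fosl1 (−1.19 ± 0.35) fell. ZT0 replicate 1 was the lowest array for Ier2 (6.98) and Junb (9.12). Of 11 tested interferon genes 2 rose and none fell (median −0.10), where 19.1% of all tested genes rose. Of 18 tested genes of autophagy and nutrient sensing 6 rose and none fell (median 0.32), 1 of them in all 5 fits. Of 18 tested genes of integrins, hemidesmosomes and basement membrane 8 rose and 3 fell (median 0.19), and none of the rises passed in the 8-array fit. Lamb3 (0.87) and Col7a1 (1.03), which anchor basal cells to the basement membrane, were not called without ZT0 replicate 1 (adjusted p = 0.255 and 0.28).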
